A study of Rattus norvegicus with 18 samples.

Results

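The genes described here encode the 5 subunits of the kainate receptor (Grik1 to Grik5) and its 2 auxiliary proteins (Neto1 and Neto2), measured in the hypothalamus of 18 rats. They are 7 genes with 9 of the 45598 probes of the array. A probe was taken when its transcript accession belonged to 1 of these genes, and each probe is given apart. The group was chosen by values seen earlier in these arrays: Neto1 had come forward for its small p-value between stressed and control rats. For that comparison the values are therefore a description, with no test.

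Kainate receptors are glutamate-gated cation channels built of 4 subunits, found on both sides of the synapse, where they carry slow excitatory currents and tune the release of glutamate and GABA. GluK1, GluK2 and GluK3 (from Grik1, Grik2 and Grik3) form channels on their own, whereas GluK4 and GluK5 (from Grik4 and Grik5) bind agonist with higher affinity and need 1 of the first set to make a channel. Neto1 and Neto2 are membrane proteins with CUB domains that attach to the receptor and slow its closing. Neto1 also associates with NMDA receptors, and Neto2 with the potassium-chloride transporter KCC2.

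The rats were male Wistar animals, 9 weeks old in the sample labels and 5 weeks old in the series design text, with 6 in each of 3 groups and 1 array per rat. Control rats had neither restraint nor a wheel. Stressed rats spent 3 weeks under restraint, with sessions of 1 to 1.5 h, 5 days per week. Rats with stress and exercise had the same restraint and free access to a running wheel over 4 weeks, of which 1 preceded the first session, so no group ran without being stressed. RNA came from the whole dissected hypothalamus, in which fewer cells of a type and less RNA per cell cannot be told apart.

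Levels are log2 of the background-corrected spot intensity minus the array's own 75th percentile, so a level of 0 is that percentile and most genes lie below it. A level depends on its probe, so levels are compared between rats and never between genes. The 75th percentile itself ran from 1963 to 2422 intensity units, an array had 63.6% to 77.7% of its probes well above background, and any pair of arrays correlated at 0.983 or more over the tested probes. The number of arrays limits the precision. The file headers place the arrays on 5 slides scanned on 2 days. Control rats 1 and 2 were on slide 1 and control rats 3 to 6 on slide 2. Stressed rats 1 to 4 were on slide 3, stressed rats 5 and 6 with exercised rats 1 and 2 on slide 4, and exercised rats 3 to 6 on slide 5. Slides 2 and 4 were scanned on day 1, and slides 1, 3 and 5 on day 2. No slide held control and stressed rats together, and slides 1 to 3 (10 arrays) held no exercised rat, while slides 4 and 5 (8 arrays) held no control. In both comparisons with control, slide and group therefore cannot be told apart by any slide that holds both groups, and exercised and stressed rats share slide 4 alone.

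Of 14 marker genes of hypothalamic neurons, 12 were well above background on every array, with mean levels over the list between -0.95 and -0.54. The neighbouring tissues could also be read. Of 11 striatal markers, 10 were well above background on all 18 arrays, and Gpr6 was so on none. The mean level of those 10 lay between -1.76 and -1.64 in control rats, between -1.69 and -1.34 in stressed rats and between -1.60 and -1.05 in exercised rats, so control and exercised rats did not overlap. The 7 endothelial markers, all well above background on every array, did not overlap between those groups either and went the other way, from -2.20 to -2.08 in control rats and from -2.42 to -2.22 in exercised rats, with stressed rats between -2.49 and -2.05. Slc17a7, the vesicular glutamate transporter of cortex and hippocampus, and the pituitary hormone gene Prl were well above background on no array.

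All but 1 of the member probes were well above background on all 18 arrays. The exception was a Neto1 probe made to the predicted transcript XM_008772133, which was so on 0 of 18 and gives no level. The other Neto1 probes were both made to NM_001107371, and 1 was much brighter than the other on every array. Each remaining gene had 1 probe. Rats of 1 group agreed closely on some probes and poorly on others. The brighter Neto1 probe had a standard deviation within groups of 0.0466, which was smaller than that of all but 2.34% of the tested probes. Grik5 followed with 0.0679, and Neto2 and Grik1 had 0.0864 and 0.0949. The median over all tested probes was 0.151. The dimmer Neto1 probe (0.202) and Grik3 (0.291) were above it, and Grik3 scattered more than 78.1% of the tested probes. The small p-value that brought Neto1 forward rests partly on the spread within groups. The low rank of its brighter probe is therefore not independent of that choice.

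**Figure D1:**
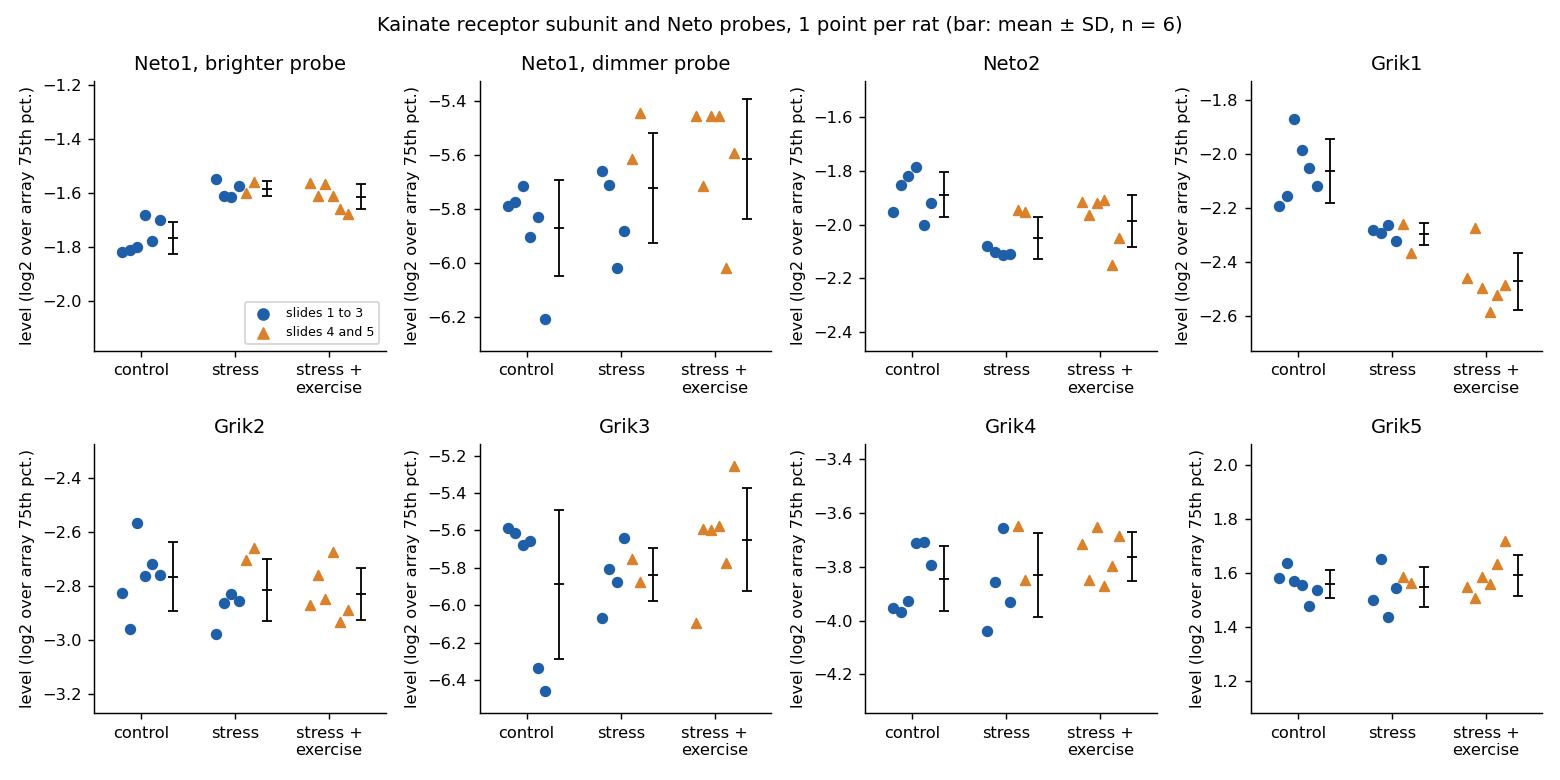
Level of each of the 8 member probes in each rat (log2 of the spot intensity over the array's 75th percentile), with 1 point per rat, a bar for the group mean ± SD (n = 6) and the marker showing the slide set. The vertical axis differs between panels. On the brighter Neto1 probe all control rats lie below all stressed and exercised rats, and on Grik1 all control rats lie above them.

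Among the auxiliary proteins, Neto1 transcripts read by the brighter probe were higher in both restrained groups than in controls, and no difference between the restrained groups passed the test. The 6 control rats ran from -1.82 to -1.68 with a median of -1.79. The stressed rats ran from -1.61 to -1.55 with a median of -1.59. The rats with stress and exercise ran from -1.68 to -1.56 with a median of -1.61. Control rat 4 was the highest control, at -1.68, and the lowest exercised rat, number 6, was also at -1.68 but above it by less than 0.01, so neither restrained group overlapped the controls.

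Between stressed and control rats, means of -1.58 ± 0.03 and -1.77 ± 0.06 (SD, n = 6 each) gave a difference of 0.18 (SE 0.03), or 1.13-fold. This is the contrast that brought Neto1 forward, so nothing is read from the separation. Of all probes measured on every array, 0.347% lay higher without overlap in stressed rats and 0.440% lower. No probe of the 31283 tested passed an adjusted p under 0.05 in limma in this contrast (0%), although 3694 had an unadjusted p under 0.05. The difference in Neto1 was 0.16 on the arrays of scan day 1, 0.23 on those of day 2 and 0.18 on slides 1 to 3 alone.

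With exercise added to stress, the brighter Neto1 probe stood 0.15 (SE 0.03) above control, or 1.11-fold, with an adjusted p of 0.00382 in limma over all tested probes. The 95% interval of the difference ran from 0.08 to 0.22, and 6 of 6 exercised rats were above the control mean. This comparison shares its control rats with the one that brought Neto1 forward. It was also a common result on these arrays: 26.1% of all tested probes passed the same test (3435 higher and 4717 lower), and 6.36% lay higher without overlap and 10.7% lower. With the slide set as a covariate the difference was 0.14 (SE 0.06) and its adjusted p 0.469. In that fit 0.0224% of probes passed. No slide set held both control and exercised rats. The value therefore joins stressed minus control rats on slides 1 to 3 (0.18) to exercised minus stressed rats on slides 4 and 5 (-0.03). The former is the contrast that brought Neto1 forward, so this fit is no separate check. The difference of exercised rats from control was 0.15 within scan day 1 (adjusted p = 0.104, with 18.3% of probes passing). Within day 2 it was 0.19 (adjusted p = 0.0246, with 18.1% passing). With no scaling of the arrays it was 0.12 (adjusted p = 0.225). The striatal marker list was higher in exercised rats by its mean level (-1.37 ± 0.22 against -1.69 ± 0.05 in controls, SD, n = 6 each), and the endothelial list was lower (-2.32 ± 0.07 against -2.13 ± 0.05). Their part in the Neto1 values was not tested.

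Exercised and stressed rats overlapped on this probe and differed by -0.03 (SE 0.03, 95% interval -0.10 to 0.04, adjusted p = 0.626 in limma). In this contrast 3.72% of tested probes passed, and 0.759% lay higher and 0.730% lower without overlap.

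The dimmer Neto1 probe also had a higher mean in both restrained groups than in controls, with far more scatter. Its levels ran from -6.21 to -5.71 in control rats (median -5.81), from -6.02 to -5.44 in stressed rats (median -5.69) and from -6.02 to -5.45 in exercised rats (median -5.52), so all 3 groups overlapped. The difference of stress with exercise from control was 0.26 (SE 0.11, adjusted p = 0.107 in limma), with a 95% interval of 0.02 to 0.49 that covers the whole interval of the brighter probe. Its difference from stressed rats was 0.11 (SE 0.11, adjusted p = 0.595), against -0.03 on the brighter probe. It passed after quantile normalization (0.38, adjusted p = 0.0200, with 28.5% of probes passing) and without exercised rat 5, which had the lowest exercised level, at -6.02 (0.34, adjusted p = 0.0261, with 23.7% passing). With the slide set as a covariate its difference of exercised rats from control was -0.03. Within the stressed group this probe also followed the slide: rats 5 and 6, on slide 4, averaged 0.29 above rats 1 to 4 on slide 3. The brighter probe did not have that shift (0.01). Its control rats on slide 2, however, averaged 0.08 above those on slide 1, and its exercised rats on slide 5 averaged -0.04 from those on slide 4.

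Neto2 had a lower mean in stressed rats, and the mean of its exercised rats lay between those of the other groups (-1.89 ± 0.08 in control, -2.05 ± 0.08 in stressed and -1.99 ± 0.10 in exercised rats, SD, n = 6 each). Control rats ran from -2.00 to -1.79 (median -1.89), stressed rats from -2.11 to -1.95 (median -2.09) and exercised rats from -2.15 to -1.91 (median -1.94). Exercised rat 5, at -2.15, was below every stressed rat. All 6 stressed rats were below the control mean, but the groups overlapped. The difference of stressed from control rats was -0.16 (SE 0.05), given as a description. Stressed rats 1 to 4 were between -2.11 and -2.08, and rats 5 and 6, on the other slide, were both at -1.95, near the exercised rats beside them. Neto2 in exercised rats differed from control by -0.10 (SE 0.05, adjusted p = 0.191) and from stress by 0.06 (SE 0.05, adjusted p = 0.475), and neither passed in limma. With the slide set in the fit the difference from control was -0.25 (SE 0.08, adjusted p = 0.387). The values of Neto1 and Neto2 thus lay on opposite sides of the control mean in stressed rats. On slides 1 to 3 the 2 genes correlated across rats at -0.70 (n = 10) and on slides 4 and 5 at 0.78 (n = 8), a description that includes the group differences within each slide set.

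Of the subunits that form channels on their own, Grik1 had the largest difference of any member between exercised and control rats with group alone in the fit, and it was downward. Grik1 encodes GluK1, which in many regions is carried by inhibitory neurons. The 6 control rats ran from -2.19 to -1.87 with a median of -2.09. The stressed rats ran from -2.37 to -2.26 with a median of -2.29. The exercised rats ran from -2.59 to -2.28 with a median of -2.49. Neither restrained group overlapped the controls, and all exercised rats but number 2 (-2.28) were below every stressed rat. Over all probes, 0.440% lay lower without overlap in stressed rats and 10.7% in exercised rats than in controls.

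Grik1 was lower in rats with stress and exercise than in controls by 0.41 on the log2 scale (SE 0.06), or 1.33-fold, with an adjusted p of 0.000561 in limma and means of -2.47 ± 0.11 and -2.06 ± 0.12 (SD, n = 6 each). The 95% interval ran from -0.53 to -0.29, and 6 of 6 exercised rats were below the control mean. Of all tested probes, 26.1% passed in this comparison. It kept its direction in every setting that was run, but not always its size or its call. The difference was -0.36 within scan day 1 (adjusted p = 0.0362) and -0.35 within day 2 (adjusted p = 0.00102). The slide set as a covariate left it at -0.39 with an adjusted p of 0.303. That value joins stressed minus control rats on slides 1 to 3 (-0.23) to exercised minus stressed rats on slides 4 and 5 (-0.16). Slide set and scan day together brought the difference from control to -0.17 (SE 0.10, adjusted p = 0.459). Slides of 1 group differed too: control rats on slide 2 averaged 0.17 above those on slide 1, and exercised rats on slide 5 averaged -0.16 from those on slide 4. How far the striatal and endothelial markers, given above for the same rats, bear on Grik1 was not tested.

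Stressed rats differed from control in Grik1 by -0.24 (SE 0.06), or 1.18-fold, given as a description because it comes from the contrast in which the gene set was chosen. That difference was -0.31 within scan day 1 and -0.12 within day 2.

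Grik1 was also the only member whose unadjusted p in limma was below the threshold between exercised and stressed rats. Its difference there was -0.17 (SE 0.06, 95% interval -0.29 to -0.05), and the adjusted p of 0.0794 in limma missed the threshold. It passed with scan day as a block (adjusted p = 0.0386, with 9.94% of all probes passing). It also passed without stressed rat 6, the lowest stressed rat, where it was -0.19 (adjusted p = 0.0486, with 13.4% passing). Within scan day 2, which sets slide 3 against slide 5, it was -0.23 (adjusted p = 0.00243, with 24.3% passing). Within scan day 1 it was -0.05 (adjusted p = 0.849) on the 2 stressed and 2 exercised rats of slide 4. With the slide set as a covariate it was -0.16 (adjusted p = 0.817, with 0.0160% of probes passing).

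**Figure D2:**
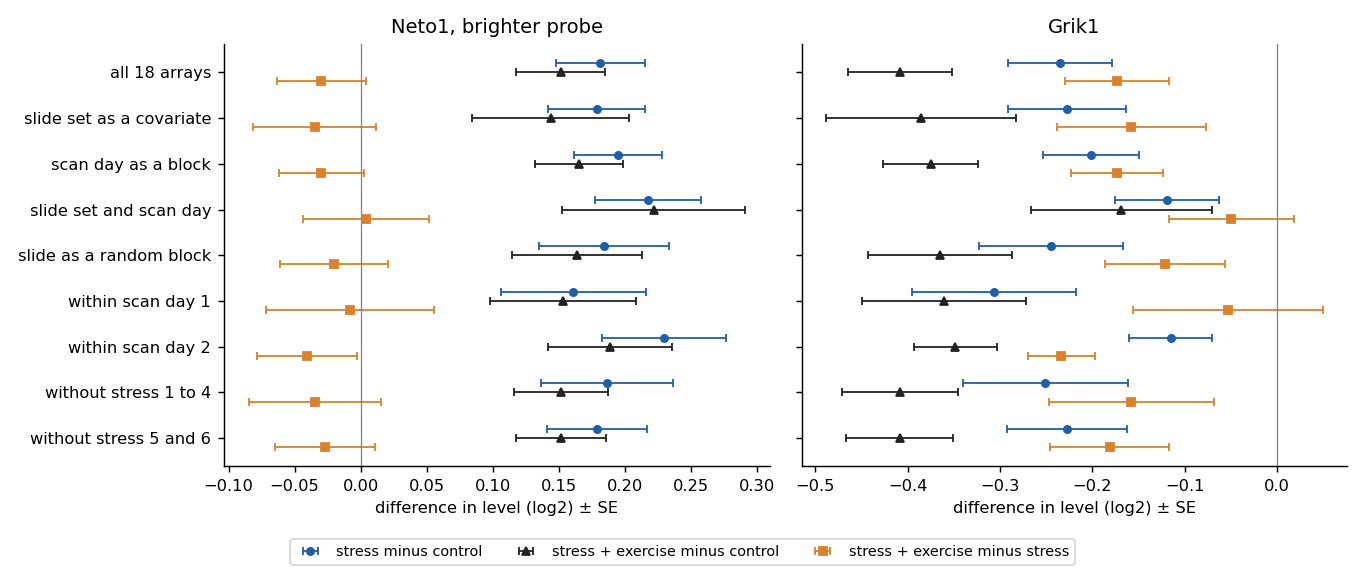
Difference in level (log2, horizontal axis, ± SE) between groups for the brighter Neto1 probe and for Grik1 under 9 ways of fitting scaled arrays, with 1 marker per comparison. In these fits Neto1 lies between 0.14 and 0.23 in both comparisons with control (0.12 in exercised rats with no scaling, not plotted). With the slide set in the fit, the exercised comparison with control includes the stress contrast that brought Neto1 forward. Against control in exercised rats, Grik1 moves from -0.41 with all 18 arrays to -0.17 when slide set and scan day are both in the fit.

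Grik2 encodes GluK2, the most widely studied subunit of the principal kind and one whose transcript is edited at the pore. It did not pass in either tested comparison. Levels ran from -2.96 to -2.57 in control rats (median -2.76), from -2.98 to -2.66 in stressed rats (median -2.84) and from -2.93 to -2.67 in exercised rats (median -2.86). The difference of exercised rats from control was -0.06 (SE 0.07, 95% interval -0.20 to 0.08, adjusted p = 0.524) and from stress -0.01 (SE 0.07, 95% interval -0.15 to 0.13, adjusted p = 0.920). With the slide set in the fit these differences were -0.26 (SE 0.11, adjusted p = 0.461) and -0.15 (SE 0.08, adjusted p = 0.856). Slides of 1 group could differ. Stressed rats 5 and 6 stood at -2.70 and -2.66, above all of stressed rats 1 to 4, which ran from -2.98 to -2.83. Control rats on slide 2 averaged 0.19 above those on slide 1, whereas exercised rats on slide 5 averaged -0.02 from those on slide 4.

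Grik3, which encodes GluK3, a subunit of low sensitivity to glutamate, was dim and the most variable member. Control rats ran from -6.46 to -5.59 (median -5.67), stressed rats from -6.07 to -5.64 (median -5.84) and exercised rats from -6.10 to -5.26 (median -5.60). Control rats 5 and 6 were at -6.34 and -6.46, while the other 4 lay between -5.68 and -5.59. Exercised rats differed from control by 0.24 (SE 0.16, 95% interval -0.10 to 0.58, adjusted p = 0.30) and from stressed rats by 0.19 (SE 0.16, adjusted p = 0.502). An interval this wide includes differences as large as the one seen in Grik1, so little can be read from Grik3.

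The high-affinity subunits passed in neither tested comparison, and their groups overlapped. Grik4, which encodes GluK4, ran from -3.97 to -3.71 in control rats (median -3.86), from -4.04 to -3.65 in stressed rats (median -3.85) and from -3.87 to -3.65 in exercised rats (median -3.76). Its difference of exercised from control rats was 0.08 (SE 0.07, 95% interval -0.07 to 0.23, adjusted p = 0.438), and from stressed rats 0.07 (SE 0.07, adjusted p = 0.595). Grik5 encodes GluK5, the usual partner of GluK2 in brain. Its levels ran from 1.48 to 1.64 in control rats (median 1.56), from 1.44 to 1.65 in stressed rats (median 1.55) and from 1.51 to 1.72 in exercised rats (median 1.57). The difference from control was 0.03 (SE 0.04, 95% interval -0.06 to 0.12, adjusted p = 0.631) and from stress 0.04 (SE 0.04, 95% interval -0.05 to 0.14, adjusted p = 0.563). These were the narrowest intervals among the subunits in the fit with group alone. With the slide set in the fit the SE of the difference from control was 0.08.

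**Figure D3:**
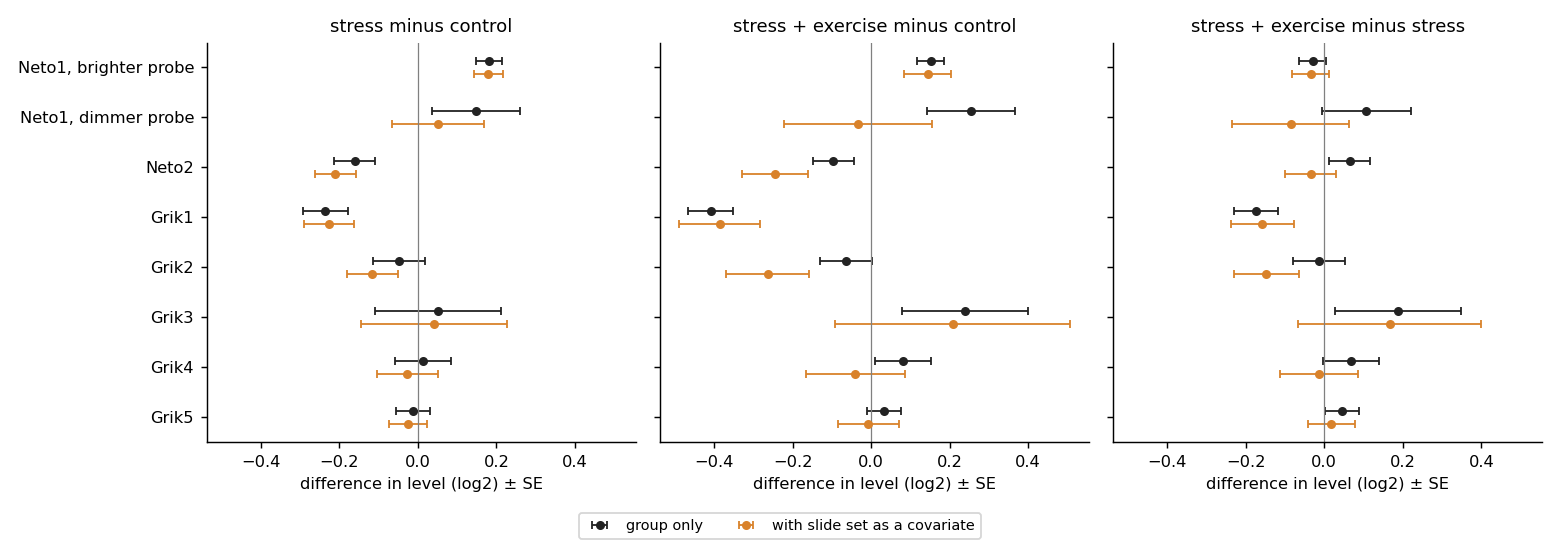
Difference in level (log2, horizontal axis, ± SE) of each member probe in the 3 comparisons, fitted with group only (black) and with slide set added as a covariate (orange). In the comparison of stress and exercise with control, the black points of the brighter Neto1 probe (0.15) and Grik1 (-0.41) are those that passed, and Neto2 and Grik2 lie farther below 0 in orange (-0.25 and -0.26) than in black (-0.10 and -0.06).

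Counted over the members, 1 of 8 tested probes was higher (Neto1) and 1 lower (Grik1) in rats with stress and exercise than in controls, and 0 of 8 passed in limma against stressed rats. These counts sit near what the whole array gave (26.1% against controls and 3.72% against stressed rats). The median difference from control over the members was 0.06, against 0.00 over all tested probes, and the median size of the difference was 0.12 against 0.13. Against stressed rats the median size was 0.07 for the members and 0.10 for all tested probes. Neither the count nor the size of the member differences was far from the background.

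Genes that act with kainate receptors were read from 3 lists, with the brightest probe of each gene. They hold 33 genes, of which 30 were tested. Between rats with stress and exercise and controls, 4 of 30 were higher and 2 lower, where 15.3% of all genes passed as higher and 11.2% as lower. The median difference was 0.04 over the lists and 0.03 over all genes. Against stressed rats 0 of 30 passed in limma, where 3.37% of all genes did.

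Of 20 tested genes for trafficking, anchoring and turnover, 3 rose and 1 fell in rats with stress and exercise against controls, with a median difference of 0.04. Dlg4, which encodes the scaffold PSD-95, went from -0.45 ± 0.08 to -0.26 ± 0.03 (SD, n = 6 each), a difference of 0.19 (SE 0.04, adjusted p = 0.00430 in limma). Pias3, which encodes a ligase of the PIAS family, rose by 0.19 (SE 0.04, adjusted p = 0.00172). Ctnnb1, which encodes beta-catenin of the cadherin complex, rose by 0.19 (SE 0.06, adjusted p = 0.0253). In each of these genes 6 of 6 exercised rats lay above the control mean. Ctnnb1 and Dlg4 also had the smallest p-values of the list against stressed rats, at 0.19 (adjusted p = 0.0740) and 0.12 (adjusted p = 0.0987).

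Other probes of the same genes did not always repeat these values. A second probe gave 0.20 for Pias3 (adjusted p = 0.385) and 0.10 for Dlg4 (adjusted p = 0.417). Genes whose brightest probe did not pass could also have another that did. For Cdh2, which encodes N-cadherin, the brightest probe was at 0.16 and the other at -0.26 (adjusted p = 0.00136). For Klhl24, an adaptor tied to kainate receptor turnover, the 2 other probes gave 0.15 (adjusted p = 0.00647) and -0.16 (adjusted p = 0.00551), in opposite directions. Another probe of the scaffold gene Cask gave 0.19 (adjusted p = 0.0162) and another of the transporter gene Slc1a3 0.16 (adjusted p = 0.0244). Against stressed rats these extra probes passed for Klhl24 (0.16, adjusted p = 0.0390), Cdh2 (-0.18, adjusted p = 0.0485) and Cask (0.20, adjusted p = 0.0495). A further Cask probe did not pass in limma against controls (0.22, adjusted p = 0.137) or stressed rats (0.19, adjusted p = 0.285). Neither did the other Klhl24 probe against stressed rats (-0.08, adjusted p = 0.236). Of all tested probes, 26.1% passed against controls and 3.72% against stressed rats.

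RNA editing can change the pore codon of Grik1 and Grik2 transcripts. Of 3 tested genes on the RNA editing list, 1 passed against controls in limma. On its brightest probe Adar rose by 0.16 (SE 0.05, adjusted p = 0.0334), from 2.28 ± 0.07 to 2.44 ± 0.06 (SD, n = 6 each). Its other probes gave 0.09 (adjusted p = 0.830) and 0.03 (adjusted p = 0.528). Adarb1 differed from controls by 0.01 (SE 0.15, adjusted p = 0.959). Against stressed rats Adar was at 0.09 (adjusted p = 0.303) and Adarb1 at 0.26 (adjusted p = 0.309). The arrays measure transcript level and do not show editing.

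Of 7 tested genes for glutamate release and uptake, 0 rose and 1 fell against controls. Glul, which encodes the glutamine synthetase of astrocytes, went from 2.08 ± 0.06 to 1.72 ± 0.09 (SD, n = 6 each), a difference of -0.36 (SE 0.07, adjusted p = 0.00132 in limma). Stressed rats lay between, at 1.89 ± 0.17, and exercised rats differed from them by -0.17 (adjusted p = 0.123). The transporter gene Slc1a2 was at 0.13 against stressed rats (adjusted p = 0.307). Once slide set entered the fit as a covariate, 0 of the 6 genes passed. Pias3 was then at 0.12, Dlg4 at 0.08, Glul at -0.06, Ctnnb1 at 0.01 and Adar at -0.05.

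**Figure D4:**
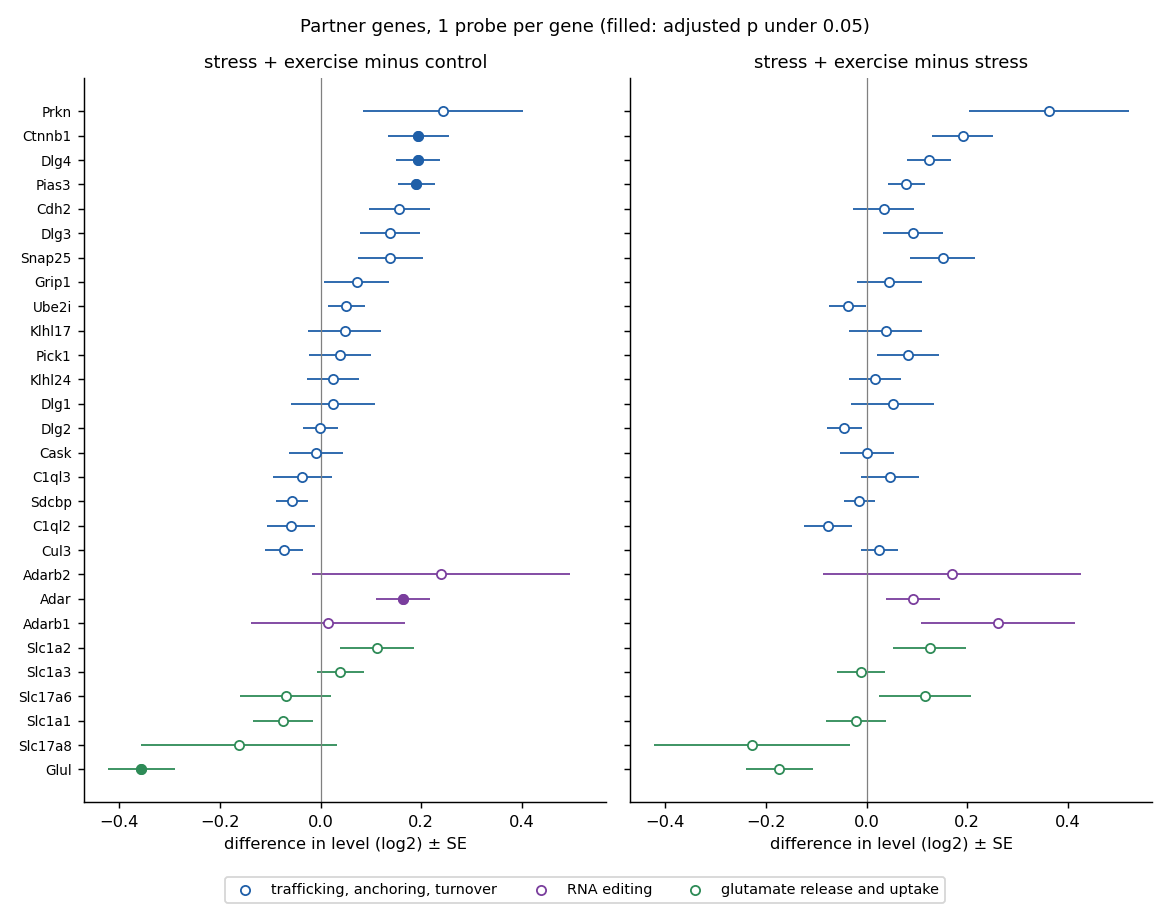
Difference in level (log2, horizontal axis, ± SE) of the partner genes reported here, brightest probe of each, with filled points for an adjusted p under 0.05 and colours for the 3 lists. Filled points appear only against control, where Pias3, Dlg4, Ctnnb1 and Adar lie right of 0 and Glul left of it.

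The genes whose levels followed the brighter Neto1 probe most closely were ranked by the lower of 2 Pearson correlations, over the 10 rats of slides 1 to 3 and over the 8 rats of slides 4 and 5, among 12974 genes. Rab3b, which encodes a small GTPase of synaptic vesicles, came first (0.87 and 0.77). Uspl1 (0.76 and 0.81), Magi3, which encodes a membrane-associated scaffold (0.91 and 0.75), and the transcription factor gene Pou3f1 (0.73 and 0.74) followed. Rab3b went from -0.46 ± 0.04 in control rats to -0.23 ± 0.03 in stressed and -0.21 ± 0.11 in exercised rats. These rats share slides and groups, so the ranks describe these arrays only. Slides 1 to 3 hold control and stressed rats of the contrast that brought Neto1 forward. A gene that shares that group difference can rank high through it.

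For Grik1 the most similar genes were Marf1 (0.94 and 0.95), Chmp4bl1 (0.91 and 0.92), Sowahc (0.96 and 0.88), the Golgi GTPase gene Rab2a (0.87 and 0.85) and the intraflagellar transport gene Ift20 (0.84 and 0.87). Chmp4bl1, Sowahc, Rab2a and Ift20 had the Grik1 order of group means: Ift20 was at -1.74 ± 0.03 in control, -2.01 ± 0.17 in stressed and -2.39 ± 0.13 in exercised rats (SD, n = 6 each). Marf1, in contrast, was at 1.92 ± 0.09, 1.87 ± 0.12 and 1.91 ± 0.07 in those groups. These means did not have the Grik1 order. The stressed mean pools both slide sets, whereas the correlations were taken within each slide set and include the group differences there. Among the members, Grik1 correlated with Neto2 at 0.85 on slides 1 to 3 and 0.19 on slides 4 and 5, with Grik2 at 0.80 and 0.39, and with the brighter Neto1 probe at -0.66 and 0.23. No pair of these was alike on both slide sets.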

How the data were processed

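Hypothalamic RNA of 18 rats was labelled with Cy3 and hybridised to 1-colour Agilent rat arrays of 62976 spots. The deposited intensity of each spot is the processed signal. Per the file headers it had been corrected for background and for spatial trend by Feature Extraction 12.1.0.3; the submitters' processing notes name 9.1. The authors' value table holds the same intensity times 1 constant per array (1.02 to 1.24), whose origin is unknown. Control spots and 297 to 580 outlier spots per array were left out, and no spot was saturated. Probes were named through their transcript accessions in a RefSeq table of another build than the array's rn4, so no position is given.

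Tests covered the 31283 probes that were well above background on 5 or more of 6 arrays in some group. Groups were compared with limma 3.58.1 (R 4.3.3; lmFit, then eBayes). The model held group alone and used all 18 arrays, two-sided, with Benjamini-Hochberg adjustment over all tested probes and a threshold of 0.05. This test was checked on simulated data. Those values were independent, with no slide or scan day effect, so the check does not cover the layout of slides here. Each sample is 1 rat per the labels, and p-values measure the spread between these rats.

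The members and lists were chosen with earlier results of these data known. The genes named are all member probes, then per partner list and comparison up to 4 passing genes per direction or the 2 with the smallest p, and the 5 genes most like Neto1 and Grik1. Some genes under this rule are not reported here, by name or in the figures, but are kept in the counts. Beyond the rule, other probes of partner genes were named after their values were seen. Alternatives varied the background correction (normexp with an offset of 50, on the median signal, as the mean signal is not used here), scaling, filter, slide, scan day, replicate block and arrays left out. Replicate numbers were taken only to name the rats: same-numbered rats of 2 groups deviated together at -0.25 to 0.19. Between exercised and stressed rats, 3 of 6 correlated best with their own number, against 0 of 6 in each comparison with control.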

Additional observations from a re-analysis of the deposited data

How the results depend on the processing

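Of 970 values recomputed under alternatives, 896 kept their direction and their side of the threshold or stayed within the limit for a count, 28 moved beyond that limit or the spread between rats, 34 changed sign, 7 lost a call and 5 gained one. For rats with stress and exercise against controls, 2 member probes and 6 partner genes passed. Member probes that passed numbered 1 with no scaling, 1 with slide as a random block, 1 within scan day 1, 0 with the slide set as a covariate and 0 with slide set and scan day together. Partner genes that passed numbered 1, 0, 1, 0 and 0 under those settings. Against stressed rats, where 0 members and 0 partner genes passed in limma, 1 member (Grik1) passed with scan day as a block and 1 within scan day 2, and leaving out each rat in turn gave 0 to 1. Partner genes that passed there numbered 2 with normexp, 1 with scan day as a block, 6 within scan day 2 and 6 without stressed rats 5 and 6, and ranged from 0 to 3 over single rats left out (1 without stressed rat 5, 3 without stressed rat 6). Of all 13045 genes, 285 passed as higher and 311 as lower with normexp. The same counts were 545 and 643 with scan day as a block and 1911 and 1157 within scan day 2. They were 1938 and 1301 without stressed rats 5 and 6, 1110 and 794 without stressed rat 5, and 808 and 804 without stressed rat 6. The brighter Neto1 probe differed between stressed and control rats by 0.23 within scan day 2. The slide set with scan day, the fits within a scan day, the 75th percentile over probes and the fits without slide 3 or without stressed rats 5 and 6 were added after the data were seen.

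For exercised against control rats, the dimmer Neto1 probe became -0.033 with the slide set and -0.091 with slide set and scan day, Grik2 0.057 within scan day 2, Grik3 -0.28 with slide set and scan day, and Grik4 -0.040 with the slide set. Grik5 became -0.0038 with no scaling, -0.0069 with the slide set, -0.12 with slide set and scan day and -0.0070 within scan day 1. Against stressed rats, the brighter Neto1 probe became 0.0041 with slide set and scan day. The dimmer one became -0.085 with the slide set, within slides 4 and 5 and without slide 3, -0.11 with slide set and scan day, and -0.055 within scan day 1. Neto2 became -0.035 with the slide set, within slides 4 and 5 and without slide 3, and -0.0050 with slide set and scan day. Grik2 became 0.0083 with normexp, 0.045 within scan day 2 and 0.052 without stressed rats 5 and 6, and ran from -0.047 to 0.017 over single rats left out. Grik3 became -0.075 with slide set and scan day and -0.029 within scan day 1. Grik4 became -0.013 with the slide set, within slides 4 and 5 and without slide 3, and -0.033 within scan day 1. Grik5 became -0.0093 with no scaling, -0.039 with slide set and scan day and -0.046 within scan day 1. None of these probes had passed in that comparison in the fit with group alone. The cause was not tested.

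Over the whole table the count of probes that passed against control was 8152. It was 1758 with slide as a random block, 7 with the slide set, 3 with slide set and scan day, 5169 with no scaling (722 of them higher) and 8905 with quantile normalization (4926 higher). Against stress it was 1163, with 0, 5, 3, 1374 (33 higher) and 1540 under the same settings, 3109 with scan day as a block and 2 with no filter on dim probes. Leaving out 1 rat moved it between 1 and 4633. Between stressed and control rats 0 passed in limma, 2 with quantile normalization, 467 with scan day as a block, 3747 within scan day 1 and 4966 without slide 3. Same-numbered rats were not taken as pairs. With the replicate number as a block, the members kept 2 and 0 calls (Neto1 adjusted p = 0.0151 and Grik1 adjusted p = 0.00255 against control, by limma). Whole-table counts were then 7107 and 2. Grik3 and the dimmer Neto1 probe had the largest spread within groups, which limits what can be read from them.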
